A study of Homo sapiens with 3 samples.

Results

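BEX2-/- DLD1 cells of clone 2 were compared with DLD1 control cells by RNA-Seq, with 1 library on each side. Of 60504 genes in the deposited table, 19664 were protein-coding. Of these, 10003 reached 1 FPKM or more as the mean of both libraries and were kept. A gene below 1 FPKM in 1 of these libraries passed only through the library where it was higher. FPKM is the number of fragments of a gene per kilobase of exon, scaled by the size of the library. The difference between the libraries was taken as log2((clone 2 FPKM + 1) / (control FPKM + 1)), here called the log2 ratio, which understates the change of genes with low values. A gene was counted as higher or lower when it differed at least 2-fold on this scale. A clone with 1 library has no replicate, so no test across genes was possible and every difference below is one between 2 libraries.

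DLD1 is an established cell line from a colorectal cancer. The control cells carried wild-type BEX2 and both knockout clones had BEX2 disrupted by CRISPR/Cas9, each knockout library coming from 1 selected clone. Clone 1, with 1 library of its own, is given beside the values as a further library and entered no count. Its ratios use the same control library as those of clone 2, so the ratios of the clones are not independent of each other. What separates clone 2 from the control through the loss of BEX2 cannot be told apart from what separates this clone from the parental population.

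Several results below concern genes regulated by NF-kappaB, a family of dimeric transcription factors made of RELA, RELB, REL, NFKB1 and NFKB2 products. In resting cells the dimers are held in the cytoplasm by inhibitor proteins such as NFKBIA and NFKBIE. Inflammatory signals release them into the nucleus, where they switch on chemokines, cytokines, acute-phase proteins and the genes of their own inhibitors. Other results concern the maturation of the colonic epithelium. In it, dividing crypt cells give rise to absorptive enterocytes with a villin-rich brush border and to goblet cells that secrete mucus and trefoil peptides.

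Depth as recovered from the values was 47458850 reads in the control, 35593989 in clone 1 and 47722374 in clone 2, and the 10 most abundant genes held 20.4% to 23.1% of the summed FPKM. BEX2, the targeted gene, was listed at 0 in all 3 libraries, control included, so the table did not allow a check of the knockout. Epithelial identity was checked with 11 colorectal markers, which summed to 1655 FPKM in the control, 1871 in clone 1 and 1886 in clone 2. KRT8, a keratin of simple epithelia, led them with 538, 510.3 and 611 FPKM in the same order. The epithelial adhesion molecule EPCAM stood at 265, 282 and 219.6 FPKM. Villin 1 (VIL1) and keratin 20 (KRT20) were above 1 FPKM in the control and below it in clone 2, and the carcinoembryonic antigen CEACAM5 was below it in both. Fibroblast and leukocyte markers were near 0. The 9 fibroblast markers summed to 0.136 FPKM in the control and 0.144 in clone 2, with COL3A1, LUM, PDGFRA and THY1 at 0 in all 3 libraries. The 16 leukocyte markers summed to 0.866 and 2.39 FPKM, with none at 1 FPKM or above and PTPRC, CD3D and LYZ at 0 throughout. The 6 endothelial markers summed to 1.48 FPKM in the control and 1.65 in clone 2, of which the tight-junction protein CLDN5 was the only one at 1 FPKM or above. The 7 neuroendocrine markers summed to 6.86 and 6.93 FPKM, nearly all of it the enolase ENO2, and CHGA, INSM1 and NEUROD1 were at 0 in all 3 libraries.

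Of the 10003 genes, 123 were at least 2-fold higher in clone 2, which is 1.23% of those compared. A further 27, or 0.270%, were at least 2-fold lower. The median log2 ratio over all genes was 0.00, and the middle 95% of the genes lay between -0.57 and 0.77. The change reached 4-fold in 17 genes that were higher and in 4 that were lower. Whole reads could be recovered in all 3 libraries for 132 of the 150 genes, and for each of these the 95% counting interval of the ratio excluded 1. That interval is an exact one from reads and covers counting error only. It also excluded 1 for 6683 of the 9006 genes compared whose reads could be recovered. Since the 150 were picked by the same ratios, their intervals add no support to the calls. The median control level was 3.38 FPKM for the higher genes and 8.61 FPKM for the lower ones, against 6.45 FPKM for all genes compared.

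**Figure D1:**
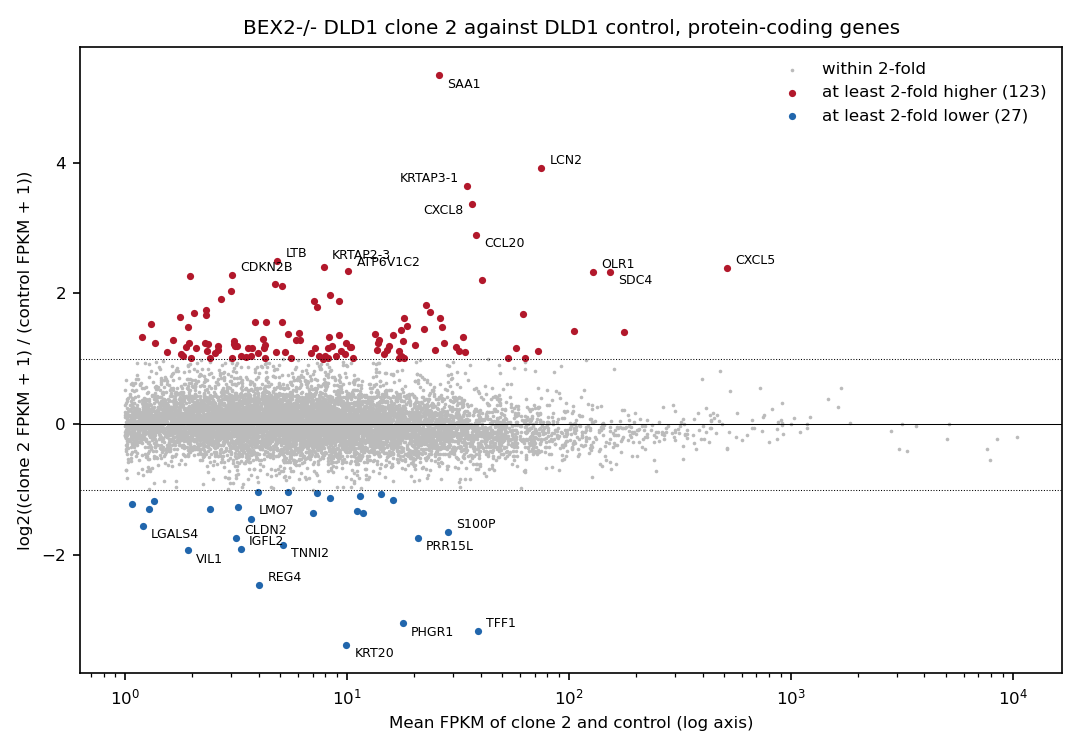
Each point is 1 of the 10003 protein-coding genes, with the mean FPKM of clone 2 and control on a log axis and the log2 ratio on the vertical axis; dotted lines mark 2-fold. The 123 red points lie above the upper line and reach 5.33 for SAA1, and the 27 blue points lie below the lower line and reach -3.37 for KRT20.

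The chemokines had the highest median of the lists among genes past the filter. The list of 14 CXC and CC chemokines also held CX3CL1, of another class, and left out the CXC member PF4, given below. Of the 14, 9 passed the filter on low values. Of these 9, 6 were at least 2-fold higher in clone 2, against 1.23% of all genes, and none was lower. The median log2 ratio of the 9 was 1.83, and 0.78 over all 14 without the filter. Of the 6, 5 attract neutrophils through the receptor CXCR2 and lie in one cluster on chromosome 4 (GRCh38 chr4:73740506-74455009, together with AREG), whereas CCL20, the ligand of CCR6 that attracts dendritic and memory T cells, lies on chromosome 2. The windows below show the NF-kappaB consensus in the bases before the annotated start of each chemokine that was higher and held it. They are printed because several members were higher and the consensus is the letter pattern of the factor described above. The reference promoters of RefSeq (GRCh38.p14) covered all 6, and 5 held the consensus on either strand within 250 bases before the start listed first. Of all 27305 genes with a promoter in that table, 5.05% held it in the same window. Among the genes compared here that had a promoter, 6.09% held it. The 6 chemokines were picked by their ratios and include close paralogs, so their share is no test. CXCL8 had no match, which says only that those letters are absent from its window. Each sequence runs 5′ to 3′ on the strand of the gene, with the match in capitals.
CCL20, chr2:227813738-227813797, plus strand: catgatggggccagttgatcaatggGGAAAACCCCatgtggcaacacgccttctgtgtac
CXCL5, chr4:73998734-73998793, minus strand: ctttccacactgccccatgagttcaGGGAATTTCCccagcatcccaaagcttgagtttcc
CXCL1, chr4:73869289-73869348, plus strand: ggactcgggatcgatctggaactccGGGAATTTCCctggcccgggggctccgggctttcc
CXCL2, chr4:74099239-74099298, minus strand: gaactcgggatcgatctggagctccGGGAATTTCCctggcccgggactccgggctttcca
CXCL3, chr4:74038734-74038793, minus strand: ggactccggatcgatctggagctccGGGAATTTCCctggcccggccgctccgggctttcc
The highest other genes that held it were LCN2 and LTB, both described below.
LCN2, chr9:128149253-128149312, plus strand: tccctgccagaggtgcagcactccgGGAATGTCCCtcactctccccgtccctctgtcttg
LTB, chr6:31582477-31582536, minus strand: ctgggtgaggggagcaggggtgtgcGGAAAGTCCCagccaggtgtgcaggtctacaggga
In the chemokines the match began 78 to 91 bases before the start, and CXCL1, CXCL2, CXCL3 and CXCL5 held 2 matches each. CXCL1, CXCL2 and CXCL3 are close paralogs whose reads can be hard to assign. A match of letters is a description and not evidence of binding.

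CXCL8, also named interleukin 8, stood at 5.62 FPKM in the control, 0.148 in clone 1 and 67.5 in clone 2, a log2 ratio of 3.37 with a counting interval of 11.04 to 13.1 for the ratio of clone 2 to control. CCL20 stood at 8.27, 0.0418 and 68.0 FPKM in the same order, a log2 ratio of 2.90. In each case clone 2 was the highest library and clone 1 the lowest. The most abundant member was CXCL5, at 165, 40.7 and 869 FPKM (log2 ratio 2.39, counting interval 5.18 to 5.34). CXCL1 stood at 13.8, 0.585 and 67.3 FPKM, a log2 ratio of 2.21. CXCL2, at 9.40, 0.524 and 35.9 FPKM, and CXCL3, at 12.3, 1.41 and 40.1 FPKM, showed the same order of libraries with log2 ratios of 1.83 and 1.63. The remaining members past the filter were the membrane-bound CXCL16 and CX3CL1 and the mucosal CCL28, whose log2 ratios were 0.57, 0.99 and 0.14. Within the cluster the gene PF4, a platelet chemokine past the filter but outside the list, was level. It was at 6.84 FPKM in the control and 7.15 in clone 2, a log2 ratio of 0.06. CXCL6 was at 0 in all 3 libraries.

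Components and inhibitors of NF-kappaB itself held genes past 2-fold in 1 direction. Of 20 such genes, 19 passed the filter, 8 were at least 2-fold higher, against 1.23% of all genes, and none was lower. The median log2 ratio of the 19 was 0.61. Among the subunits, RELB stood at 9.03 FPKM in the control, 1.63 in clone 1 and 21.8 in clone 2 (log2 ratio 1.19), and NFKB2, its partner in the non-canonical pathway, at 18.5, 8.39 and 48.4 FPKM (1.34). RELA, the main activating subunit, was at 14.4 and 18.2 FPKM in control and clone 2, a log2 ratio of 0.32 that did not reach the limit. Inhibitors followed the same order. NFKBIE stood at 11.4, 5.05 and 32.9 FPKM (log2 ratio 1.45) and NFKBIZ, a nuclear regulator of the family, at 4.68, 4.34 and 13.7 FPKM (1.37). The ubiquitin-editing enzyme TNFAIP3, also called A20, stood at 3.35, 0.656 and 15.001 FPKM (log2 ratio 1.88, counting interval 4.15 to 4.85). Its adaptor TNIP1 stood at 19.7, 16.2 and 44.1 FPKM, a log2 ratio of 1.12. The receptor-associated proteins BIRC3 and TRAF1 were at 6.42 and 5.55 FPKM in clone 2, with log2 ratios of 1.31 and 1.17. NFKBIA, the inhibitor of the canonical dimer, was at 43.4, 15.1 and 66.7 FPKM, a log2 ratio of 0.61.

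A separate list of 21 targets of NF-kappaB, which shares genes with the chemokine and inhibitor lists, had 16 members past the filter. Of these, 13 were at least 2-fold higher, against 1.23% of all genes, and none was lower. The median log2 ratio was 1.51, and 1.34 over all 21 without the filter. LTB passed the filter only through its level in clone 2. The list was written with earlier results of these libraries known, so it is no independent support. The members not yet named were the cytokines CSF2 and LTB and the immediate early gene IER3. CSF2, a growth factor of granulocytes and macrophages, stood at 1.69 FPKM in the control, 0.0714 in clone 1 and 6.95 in clone 2 (log2 ratio 1.56). LTB, the membrane anchor of lymphotoxin, stood at 0.755, 0.0366 and 8.94 FPKM (2.5), on 55, 2 and 655 reads. IER3, a regulator of apoptosis, was more abundant at 57.1, 27.8 and 154 FPKM (1.42). The adhesion molecule ICAM1 and the mitochondrial dismutase SOD2 stayed within 2-fold, together with NFKBIA.

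Among 24 acute-phase and mucosal defence genes, 8 passed the filter, and these included SAA1, the gene with the highest log2 ratio of all. SAA1, an acute-phase apolipoprotein, stood at 0.303 FPKM in the control, 0 in clone 1 and 51.4 in clone 2, a log2 ratio of 5.33. Its neighbour SAA2 (both genes within chr11:18239223-18269977) had 2 reads in the control, 1 in clone 1 and 416 in clone 2, a log2 ratio of 2.27 with a counting interval of 56.9 to 1714. These genes are near-identical copies, so the division of reads between them is uncertain. Both passed the filter only through their level in clone 2. LCN2, a siderophore-binding protein of mucosal defence, stood at 8.45, 1.16 and 142 FPKM (log2 ratio 3.92, counting interval 15.5 to 18.2). Clone 2 was far above the other libraries for all 3 genes. The trefoil peptide TFF1 and the lectin REG4, secreted by mucous cells, were in contrast at least 2-fold lower and are described with the epithelial genes. The list as a whole therefore held 3 genes that were higher, against 1.23% of all genes, and 2 that were lower, against 0.270%. Its median log2 ratio was -0.28 over the 8, and 0.00 over all 24 without the filter.

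**Figure D2:**
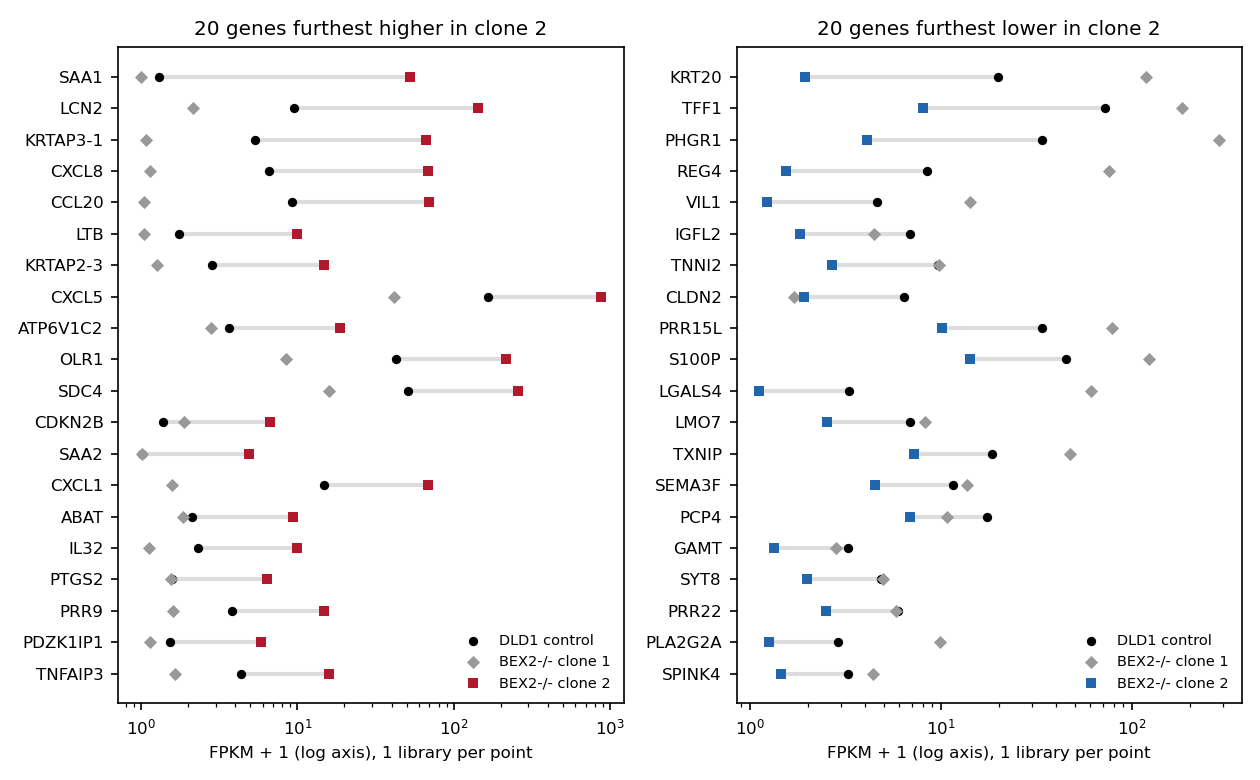
FPKM + 1 on a log axis for the 20 genes with the highest (left) and the 20 with the lowest (right) log2 ratio, 1 point per library, with a grey bar joining control and clone 2. CXCL5 is the most abundant at 869 FPKM in clone 2, and PHGR1 reaches 284 FPKM in clone 1 against 3.07 in clone 2.

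Other cytokines and inflammatory mediators were among the highest genes. IL32, a pro-inflammatory cytokine of epithelial and lymphoid cells, stood at 1.31 FPKM in the control, 0.131 in clone 1 and 8.93 in clone 2 (log2 ratio 2.11). The prostaglandin synthase PTGS2, also called COX-2, stood at 0.576, 0.555 and 5.42 FPKM (2.03, counting interval 7.92 to 11.3). Here clone 1 and the control were alike. LIF, a cytokine of the interleukin 6 family, stood at 13.6, 11.4 and 39.97 FPKM (1.49). A list of 29 genes, named for cytokine receptors and signal suppressors, also held cytokines. In it 21 genes passed the filter, and their log2 ratios had a median of 0.35. The 2 past 2-fold were the cytokines IL32 and LIF, against 1.23% of all genes that were higher. The list left out some receptors that were at least 2-fold higher. Among these were IFNGR1 (1.69), TNFRSF9 (1.54) and IL20RA (1.14), described below, so its count does not cover all cytokine receptors. OLR1, a scavenger receptor for oxidised lipoprotein, stood at 41.8, 7.47 and 214 FPKM (2.33), and the heparan sulphate proteoglycan SDC4 at 50.1, 14.99 and 255 FPKM (2.33). PDZK1IP1, a small membrane protein found in carcinomas, stood at 0.542, 0.137 and 4.85 FPKM (1.92).

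A few of the 20 highest genes have no known part in inflammation. The keratin-associated proteins KRTAP3-1 and KRTAP2-3, structural proteins of hair, lie within 0.0516 Mb of each other on chromosome 17. KRTAP3-1 stood at 4.33 FPKM in the control, 0.0775 in clone 1 and 65.5 in clone 2 (log2 ratio 3.64, on 149, 2 and 2267 reads), and KRTAP2-3 at 1.83, 0.257 and 13.9 FPKM (2.40). They belong to a family of similar genes. PRR9, a proline-rich protein encoded in the epidermal differentiation region, stood at 2.79, 0.594 and 13.9 FPKM (1.97). ATP6V1C2, a subunit of the vacuolar proton pump, stood at 2.64, 1.81 and 17.6 FPKM (2.35), and the GABA-degrading enzyme ABAT at 1.13, 0.859 and 8.37 FPKM (2.14). Exons of ATP6V1C2 and ABAT overlap those of PDIA6 and TMEM186, and the library kit does not mark the strand, so reads in the shared bases cannot be told apart.

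Early response genes of growth signalling held fewer members past 2-fold. Of 24 AP-1 and immediate early genes, 20 passed the filter and 3 were at least 2-fold higher, against 1.23% of all genes. None was lower, and the median log2 ratio was 0.53. JUN, a subunit of AP-1, stood at 7.81 FPKM in the control, 5.03 in clone 1 and 19.8 in clone 2 (log2 ratio 1.24). KLF6, a zinc-finger factor, stood at 8.11, 14.6 and 19.1 FPKM (1.14), with clone 1 between the other libraries. IER3 was the other one. JUNB and JUND had log2 ratios of 0.51 and 0.40, and FOSL1 was level at -0.01. In the ERK pathway list, 15 of 18 genes passed the filter, with a median of 0.39. Of these, 3 were at least 2-fold higher, against 1.23% of all genes. DUSP5 and DUSP6, phosphatases that switch off ERK, stood at 27.7 and 24.5 FPKM in clone 2 against 8.30 and 11.5 in the control, log2 ratios of 1.63 and 1.02. In clone 1 they stood at 6.95 and 3.73 FPKM. Among 8 EGF receptors and ligands past the filter, AREG, a ligand of EGFR, stood at 97.0, 73.4 and 259 FPKM (1.41). EREG, its neighbour, stood at 62.3, 41.0 and 109.5 FPKM, a log2 ratio of 0.80.

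Among the gene lists, that of enterocyte and differentiation genes held the most lower genes, though only 10 of the 27 lower genes were in any list. Of 34 enterocyte and differentiation genes, 9 passed the filter, 4 were at least 2-fold lower against 0.270% of all genes, and none was higher. Their median log2 ratio was -0.46 over the 9, and -0.01 over all 34 without the filter. KRT20, VIL1 and LGALS4 were below 1 FPKM in clone 2 and passed the filter only through the control. The count of lower genes in this list is therefore no independent support. KRT20, the keratin of mature intestinal epithelium (chr17:40875941-40885227), stood at 18.9 FPKM in the control, 117 in clone 1 and 0.931 in clone 2, a log2 ratio of -3.37 on 1657, 7696 and 82 reads. PHGR1, a small protein of differentiated gut epithelium, stood at 32.6, 284 and 3.07 FPKM (-3.04). For both, clone 2 was the lowest library and clone 1 the highest. VIL1, the actin-bundling protein of the brush border, stood at 3.61, 13.2 and 0.221 FPKM (-1.92), although its exons overlap those of USP37 over 3073 bases counted across transcripts. LGALS4, a galectin of the intestinal epithelium, stood at 2.28, 60.2 and 0.119 FPKM (-1.55), on 286, 5664 and 15 reads. The members within 2-fold included the transcription factors CDX2, at 33.3 and 24.0 FPKM in control and clone 2, and HNF4A, at 4.60 and 5.06 FPKM, with log2 ratios of -0.46 and 0.11. The adhesion molecules CDH17 and TSPAN8 had log2 ratios of -0.24 and -0.06.

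Some secreted products of mucous cells were lower as well. TFF1, a trefoil peptide that protects the mucosa, stood at 70.9 FPKM in the control, 182 in clone 1 and 7.04 in clone 2 (log2 ratio -3.16). REG4, a secreted lectin, stood at 7.48, 74.3 and 0.546 FPKM (-2.46). SPINK4, a protease inhibitor of goblet cells, was lower at 2.26, 3.39 and 0.449 FPKM (-1.17), on 70, 79 and 14 reads. It was the 1 gene past 2-fold among 6 goblet cell and mucin genes past the filter, against 0.270% of all genes that were lower. The median log2 ratio of the 6 was -0.53, and 0.00 over all 21 without the filter. TFF3 stood at 12.95, 35.7 and 6.21 FPKM, a log2 ratio of -0.95 short of the limit, while AGR2, a protein folding enzyme of mucous cells, was at 117, 191 and 137 FPKM (0.23). The calcium-binding protein S100P stood at 43.8, 122 and 13.2 FPKM (-1.65). It was the 1 gene past 2-fold of 10 S100 genes past the filter, against 0.270% of all genes that were lower. The antimicrobial phospholipase PLA2G2A stood at 1.89, 8.87 and 0.249 FPKM (-1.21). REG4, SPINK4 and PLA2G2A were below 1 FPKM in clone 2 and passed the filter only through the control.

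The other genes among the 20 lowest had varied functions. CLDN2, which forms cation-selective pores in tight junctions, stood at 5.39 FPKM in the control, 0.700 in clone 1 and 0.916 in clone 2 (log2 ratio -1.74), and was low in both clones, with exons that overlap those of RIPPLY1. It was the 1 gene past 2-fold of 18 tight junction genes past the filter, against 0.270% of all genes that were lower. The median of the 18 was 0.11. TXNIP, an inhibitor of thioredoxin and of glucose uptake, stood at 17.5, 46.4 and 6.21 FPKM (-1.36). PRR15L, a proline-rich protein, stood at 32.6, 77.1 and 9.15 FPKM (-1.73). SEMA3F, a secreted guidance cue, was at 3.49 FPKM in clone 2 against 10.5 in the control (-1.36). GAMT, which makes creatine, and PCP4, a calmodulin-binding protein, had log2 ratios of -1.29 and -1.33. IGFL2, TNNI2, SYT8, PRR22 and LMO7 had log2 ratios of -1.91, -1.84, -1.29, -1.26 and -1.44.

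Genes of cell division lay a little below the control. None of 35 DNA replication genes and none of 37 mitosis and spindle genes reached 2-fold. All 37 mitosis genes were nevertheless below 0, with log2 ratios from -0.96 to -0.16 and a median of -0.49, whereas 50.1% of all genes were below 0. All 37 were also below 0 after scaling by the median ratio and after scaling to TPM. Of the replication genes, 33 of 35 were below 0 (32 after scaling to TPM), with a median of -0.32. In clone 1 the medians of these lists were 0.01 and -0.18. PCNA, the sliding clamp of the replication fork, stood at 238 FPKM in the control, 215 in clone 1 and 169 in clone 2 (log2 ratio -0.49). The helicase subunits MCM3 and MCM7 had log2 ratios of -0.42 and -0.31, and the thymidine kinase TK1 -0.32. CDC20, which activates the anaphase-promoting complex, stood at 171, 155 and 109.6 FPKM (-0.64), and cyclin B1 (CCNB1) at 103, 104 and 65.3 FPKM (-0.65). For the 3 genes given in full, clone 2 was the lowest library. UBE2C and PTTG1, the ubiquitin-conjugating enzyme of that complex and securin, had log2 ratios of -0.49 and -0.63.

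A pair of inhibitors of cyclin-dependent kinases was higher. Of 19 cyclins and cell-cycle inhibitors past the filter, CDKN2B and CDKN1A were at least 2-fold higher, against 1.23% of all genes. CDKN2B passed the filter only through its level in clone 2. CDKN2B, encoding the inhibitor p15, stood at 0.379 FPKM in the control, 0.879 in clone 1 and 5.71 in clone 2 (log2 ratio 2.28, counting interval 11.9 to 19.4). CDKN1A, encoding p21, stood at 4.24, 6.68 and 12.3 FPKM (1.34, counting interval 2.64 to 3.18). Both were lowest in the control and highest in clone 2. The cyclin CCND1 had a log2 ratio of 0.29, its partner CDK4 one of -0.29 and the inhibitor CDKN1B one of -0.34. The factor E2F1, which drives entry into S phase, was at 20.4 FPKM in the control and 13.4 in clone 2 (-0.58). Among 17 p53 targets past the filter, CDKN1A and the kinase PLK2 were at least 2-fold higher, against 1.23% of all genes. The median of the 17 was 0.19, with 12 above 0 and 5 below. PLK2 stood at 6.01, 3.92 and 14.9 FPKM (1.18).

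**Figure D3:**
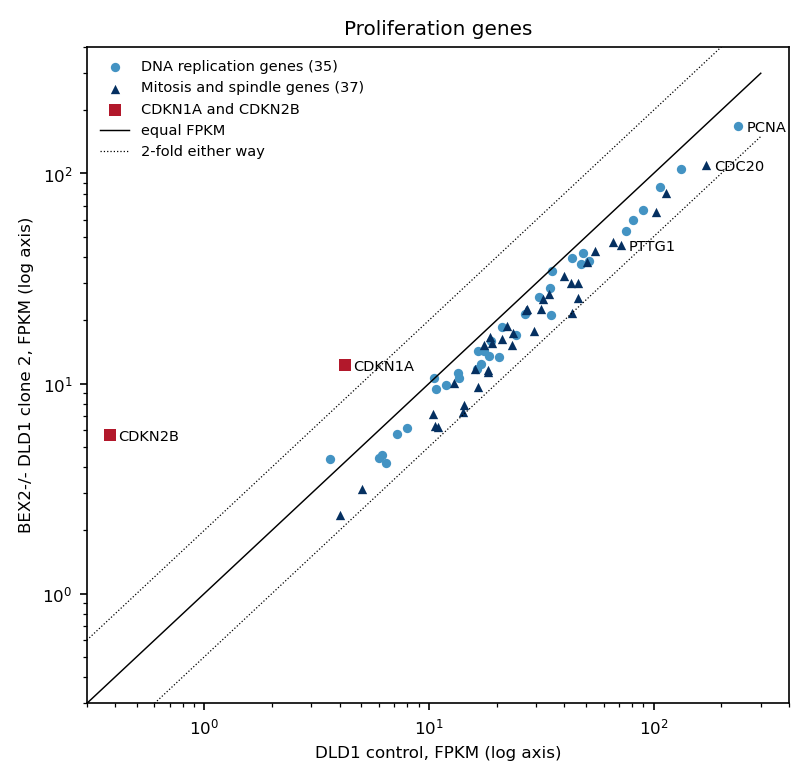
Control FPKM against clone 2 FPKM, both on log axes, for 35 DNA replication genes, 37 mitosis and spindle genes and the inhibitors CDKN1A and CDKN2B; the solid line marks equal values and dotted lines mark 2-fold. The replication and mitosis genes lie below the solid line except for 2 replication genes above it. CDKN1A and CDKN2B lie above the upper dotted line. The plotted values carry no pseudocount, so the dotted lines are not the 2-fold limit used for the counts.

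Further lists had medians away from 0 with few genes past 2-fold. Of 15 MHC class I and peptide loading genes past the filter, 13 were above 0 with a median log2 ratio of 0.41, and none reached 2-fold. HLA-C stood at 109 FPKM in the control and 135 in clone 2. Over 15 interferon-stimulated genes past the filter the median was 0.37, and 0.14 over all 31 without the filter. Of the 15, 2 were at least 2-fold higher, against 1.23% of all genes. They were IFIT3, an antiviral protein, at 0.782, 0.830 and 2.78 FPKM (log2 ratio 1.08), and PSMB9, a subunit of the immunoproteasome whose exons overlap PSMB8, at 1.82, 1.12 and 5.35 FPKM (1.17). The transmembrane proteins IFITM2 and IFITM3 were below 0 at -0.68 and -0.55. Of 17 integrin and laminin genes past the filter, 15 were above 0 with a median of 0.49, and the highest was LAMA3 at 3.12 and 7.21 FPKM in control and clone 2, just outside the limit. Of 16 YAP targets past the filter, 12 were above 0. Their median was 0.42, and 0.18 over all 20 without the filter. CRIM1, a transmembrane regulator of BMP, was the 1 gene past 2-fold, against 1.23% of all genes that were higher. It stood at 8.62, 4.88 and 23.7 FPKM (1.36). In the list of BMP and SMAD genes, 2 of 20 past the filter were at least 2-fold higher, against 1.23% of all genes. They were BMP2 itself, at 1.45, 1.2 and 6.27 FPKM (1.57), and the matrix protein TGFBI, at 9.05, 1.88 and 20.2 FPKM (1.07). The nuclear genes of the respiratory complexes were below 0 for 28 of 29 (26 after scaling to TPM), with a median of only -0.18.

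The study addressed the hedgehog pathway, in which a ligand relieves the receptor PTCH1 of its hold on SMO and GLI factors then act on their targets. Of 34 hedgehog genes, 15 passed the filter and none was at least 2-fold higher or lower, with a median log2 ratio of 0.09, and of -0.13 over the 9 with a mean of at least 5 FPKM. PTCH1, both receptor and target, stood at 0.942 FPKM in the control, 1.05 in clone 1 and 2.31 in clone 2, a log2 ratio of 0.77. The 742 and 1826 reads of control and clone 2 gave a counting interval of 2.25 to 2.67 for the ratio without a pseudocount, and with a pseudocount of 0.1 FPKM the log2 ratio was 1.21, past the limit. SMO had 0 reads in the control, 5 in clone 1 and 10 in clone 2. With the control set to the 3 reads that a count of 0 allows, the ratio of clone 2 to control was 3.31. This value leaves out the counting error of the 10 reads, so it is not a lower limit. HHIP, an inhibitor that is also a target, had 73, 22 and 12 reads, a counting interval of 0.0808 to 0.303 for the ratio of clone 2 to control. GLI1 had 9, 13 and 10 reads, and its counting interval included 1. SMO, HHIP, GLI1, GLI2 and GLI3 were under the filter. The negative regulator SUFU and the cofactor ZIC2 had log2 ratios of 0.09 and -0.13. Of the relatives of BEX2, BEX3 stood at 104, 90.3 and 83.4 FPKM (-0.32), and 6 BEX and TCEAL genes past the filter had a median of -0.02, which was 0.05 after scaling to TPM.

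The position of the genes showed several runs of neighbours. Of the 123 higher genes, 32 lay in 11 runs in which each start was within 1 Mb of the next, and of the 27 lower genes, 6 lay in 3 runs. The same share for other sets of genes of these sizes was not counted. These counts therefore cannot be told apart from the density of genes along the chromosomes. Besides the chemokine cluster, one run on chromosome 6 (chr6:136999971-137883312) held IL20RA, IFNGR1 and TNFAIP3. IFNGR1, the receptor of interferon gamma, stood at 28.8 FPKM in the control, 28.3 in clone 1 and 94.8 in clone 2 (log2 ratio 1.69), and IL20RA, a receptor of the interleukin 20 family, at 15.2, 10.03 and 34.8 FPKM (1.14). A run on chromosome 12 held OLR1, the autophagy gene GABARAPL1 and the killer cell lectin receptor KLRC2, the last of which shares sequence with KLRC1. In the MHC region of chromosome 6 the run held IER3, DDR1, MICB, LTB, SLC44A4 and PSMB9. A further one on chromosome 17 held ARHGAP27 and PLEKHM1, with log2 ratios of 1.03 and 1.28.

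The log2 ratio was also followed along each chromosome as a running median of 15 neighbouring genes. Of 9662 windows, 24 lay beyond 0.35 in either direction. Of these, 8 covered the chemokine cluster of chromosome 4, 10 a stretch of chromosome 13 and 6 lay on chromosome 11. The stretch of chromosome 13 was the only one below 0 among them. It ran from MZT1 to RNF219 (chr13:72708357-78659179, 5.95 Mb), with its ends chosen after the values were seen, and all 11 genes past the filter in it were below 0. Their median log2 ratio was -0.73, against 0.08 in clone 1 and 0.04 for the 20 genes that flank it. MZT1, a component of the gamma-tubulin complex, stood at 15.97 FPKM in the control, 14.2 in clone 1 and 6.95 in clone 2 (-1.09), and LMO7, an actin-associated protein of cell junctions, at 5.84, 7.24 and 1.53 FPKM (-1.44). These were the 2 genes past 2-fold. The others included BORA at -0.91, COMMD6 at -0.82 and TBC1D4 at -0.06, at 7.05 and 6.70 FPKM in control and clone 2. KLF5, a factor of proliferating intestinal epithelium, stood at 35.1, 53.2 and 27.1 FPKM (-0.36). Without the pseudocount the 11 ratios of clone 2 to control had a median of 0.536 and ranged from 0.262 to 0.950. DNA copy number was not measured, and its part in the lower values was not tested.

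**Figure D4:**
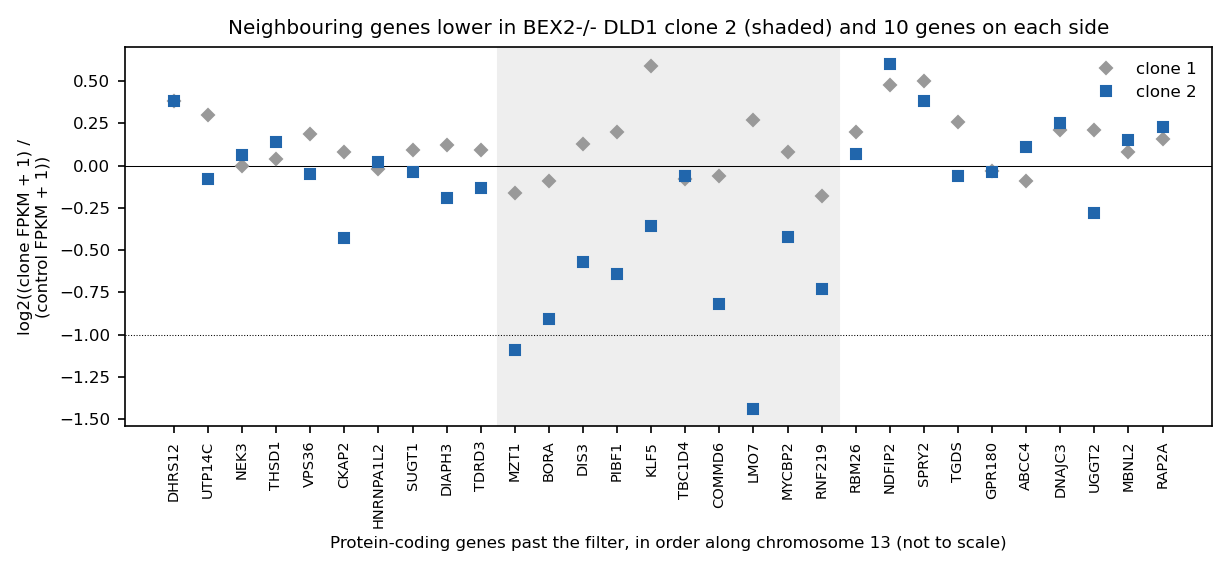
Log2 ratio to the control of clone 2 (blue squares) and clone 1 (grey diamonds) for 10 of the 11 genes of the chromosome 13 stretch (shaded) and 10 genes on each side, in order along the chromosome and not to scale. The 10 clone 2 values in the shaded stretch are below 0, and over all 11 genes the median is -0.73 in clone 2 and 0.08 in clone 1.

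Near the limit of 2-fold the choice of members was fine. Just inside were RASSF10, STAP2 and MICB among the higher genes, with log2 ratios of 1.002, 1.011 and 1.011, and MLXIPL, NR1D1 and RARRES2 among the lower, with -1.028, -1.030 and -1.052. Just outside were ERRFI1, LAMA3 and MT2A, with 0.997, 0.996 and 0.989, and PPARG, RASL11A and CYP1A1, with -0.996, -0.990 and -0.988. PPARG, a nuclear receptor of differentiated colonocytes, stood at 9.70 FPKM in the control, 18.1 in clone 1 and 4.37 in clone 2. Of the 150 genes past the limit, 91 had a mean of at least 5 FPKM.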

How the data were processed

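RNA-Seq libraries of DLD1 control cells and of 2 BEX2-/- DLD1 clones, 1 each, were prepared with the Illumina TruSeq RNA kit. The authors deposited FPKM values per gene. Their processing notes name Trim Galore 0.3.7, STAR 2.5, Cufflinks 2.2.1, DESeq 1.22.1 and the build hg19, and the annotation release is not given in the sources used here. Identifiers were matched to GENCODE release 29 (GRCh38), which held 56996 of 60504. Coordinates are from that release, not from the table.

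Ratios were taken as log2(FPKM + 1), with a mean of at least 1 FPKM and a 2-fold limit. Reads were recovered as FPKM times exon length and depth, whole within 0.02. Among low values, 98.7% to 98.8% were whole for genes with 1 transcript, and 88.2% to 89.0% for the rest. Ratios of reads carry exact (Clopper-Pearson) 95% intervals. PCR copies were not removed, so intervals cover counting error only.

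The members and the 49 gene lists were chosen with earlier results of these data known. Genes named were the 20 highest and 20 lowest, list members past 2-fold, up to 4 abundant others per list, BEX, TCEAL and hedgehog genes, neighbouring runs and genes near the limit. Any other gene was chosen after its values were seen, among them PF4, CXCL6, CEACAM5 and the further genes of the chromosome 13 stretch. RefSeq promoters (GRCh38.p14) were found for 75.6% of higher and 66.7% of lower genes. As fewer than 80% had one, a comparison of motif shares between these sets is void and is not given. The methods were tested on simulated data, and run in Python 3.11.15 (numpy 2.4.6, scipy 1.17.1, pandas 2.3.3), with plots from matplotlib 3.10.9. Results for some genes, 1 of them in the chromosome 13 stretch, are not reported here. Alternatives were another pseudocount, filters, scalings, gene sets and thresholds.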

Additional observations from a re-analysis of the deposited data

How the results depend on the processing

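The counts of genes depended on the limits, while no named gene past 2-fold lost its call or turned direction under any alternative in which it was kept. Most alternatives could hardly weaken a call, because they enlarged the ratios, relaxed the limit or left each ratio as it was. The kept calls are therefore no sign of robustness. Against 123 higher and 27 lower genes, a pseudocount of 0.1 FPKM gave 227 and 70, and ratios without a pseudocount, with values under 3 reads set to 3 reads, gave 251 and 79. Scaling to TPM, with filter and pseudocount on that scale, gave 311 and 89, and a 1.5-fold limit gave 463 and 230. A mean of at least 5 FPKM gave 76 and 15, as fewer genes were compared. All genes of the table gave 169 and 70. Scaling by the median ratio (123 and 27), no filter (127 and 29) and a minimum exon length of 200 nt (123 and 27) left these counts within 1.5 times. Of 263 named genes, 8 more were past the limit with a pseudocount of 0.1 FPKM, 12 with scaling to TPM and 10 without a pseudocount. List medians moved by 0.1 or more for 15 of 47 lists without the filter, 14 of 46 with a mean of at least 5 FPKM and 17 of 47 after scaling to TPM. Without the filter, which admits genes at or near 0, the chemokine median was 0.78 and the enterocyte median -0.01. Among lists whose median was at least 0.1 in size, the xenobiotic list changed sign with a mean of at least 5 FPKM, and the acute-phase, Notch and xenobiotic lists after scaling to TPM. With 1 library per side no replicate could be left out, and no paired analysis was possible because the groups share fewer than 2 replicate numbers. Depth limits the hedgehog genes under the filter, most of which had under 100 reads.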

Other observations

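Of the 150 genes past 2-fold, 50 were in a list. The genes named here are examples from the others, chosen after their values were seen, and they stand for no tested group. A pair of enzymes that degrade sphingosine-1-phosphate, a lipid messenger, was higher. The phosphatase SGPP2 stood at 2.73 FPKM in the control, 3.35 in clone 1 and 11.9 in clone 2 (log2 ratio 1.79), and the lyase SGPL1 at 11.8, 9.003 and 28.6 FPKM (1.21). Membrane transporters that were higher included the lactate carrier SLC16A1, at 45.5, 34.8 and 100.2 FPKM (1.12) and the glutamate carrier SLC1A3, at 0.898, 0.413 and 3.26 FPKM (1.17). The tryptophan-degrading enzyme TDO2 had 108, 1 and 919 reads (1.70). Signal regulators included the RNase ZC3H12A, which destroys cytokine transcripts, at 10.5, 6.17 and 36.8 FPKM (1.72), and the kinase MAP3K8, which links NFKB1 to ERK, at 1.27, 0.648 and 3.96 FPKM (1.13). The macrophage growth factor CSF1 stood at 2.47, 0.757 and 11.7 FPKM (1.88), and TNFRSF9, a costimulatory receptor, had 54, 0 and 735 reads (1.54).

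On chromosome 11 the imprinted genes H19 and IGF2 differed in opposite directions. H19, a non-coding RNA made from the maternal chromosome and outside the protein-coding set, stood at 109 FPKM in the control, 30.3 in clone 1 and 4.55 in clone 2 (log2 ratio -4.31). IGF2, a growth factor made from the paternal chromosome, stood at 0.761, 0.274 and 2.996 FPKM (1.18). It passed the filter only through its level in clone 2. Its exons overlap those of another entry of IGF2 and of a read-through gene with INS, so its value may be partial. The nearby SYT8 and TNNI2, at log2 ratios of -1.29 and -1.84, were level in clone 1 at 0.03 and 0.02. DNA methylation and allele of origin were not measured.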
